A study of Mus musculus with 11 samples.

Results

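The 10 transcripts described here encode interferon gamma inducible GTPases: the guanylate-binding proteins Gbp2, Gbp3, Gbp4, Gbp5, Gbp7 and Gbp9, and the immunity-related GTPases Irgm1, Irgm2, Igtp and Iigp1. They were taken by name from a count table of 52997 genes, and all 10 were among the 12932 genes with enough reads to be tested. The cells were CD45.2+ regulatory T (Treg) cells carrying the vTreg53 T cell receptor transgene, which came from visceral adipose tissue (VAT) Treg cells, so every group shared the transgene and its receptor clonotype. Donor Treg cells, pooled from the spleen and the lymph nodes (Spl/LN) of male vTreg53 Tg+ Foxp3-GFP mice on the C57BL/6 background, were transferred into male CD45.1 B6 hosts, which kept their own immune cells. After 6 weeks the hosts were primed under the skin with complete Freund's adjuvant (CFA), and 1 week later boosted into the peritoneum with incomplete Freund's adjuvant (IFA). Fat1562, a surrogate peptide agonist of the vTreg53 receptor, was in both emulsions for the immunized groups. Clonotype+ cells, labelled as male and 15 weeks, were sorted 1 week after the boost in lots of 1000 from the Spl/LN or VAT of the hosts. There were 3 libraries of Spl/LN Treg cells with adjuvant alone, 3 of Spl/LN Treg cells with adjuvant/Fat1562, 2 of VAT Treg cells with adjuvant alone and 3 of VAT Treg cells with adjuvant/Fat1562. The sample labels name the control hosts PBS and unimmunized, whereas the study's methods describe adjuvant alone. An effect of the peptide and one of the adjuvant therefore cannot be told apart if the labels hold, and the name adjuvant alone follows the methods.

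Guanylate-binding proteins (GBPs) are large GTPases of the dynamin superfamily that assemble on the vacuoles and outer membranes of intracellular pathogens, and several of them promote inflammasome activation. Immunity-related GTPases (IRGs) fall into effectors such as Iigp1, which load onto pathogen vacuoles and disrupt them, and regulators (Irgm1, Irgm2 and Igtp, also named Irgm3), which sit on the cell's own membranes and keep the effectors inactive there. Interferon gamma drives both families through its receptor and the kinases Jak1 and Jak2, and the promoters of its targets often hold gamma-activated sequence (GAS) elements and interferon-stimulated response elements (ISREs), which Irf1 binds. T cells carry the receptor and also express these GTPases.

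The members lie in a few gene clusters (GRCm38, GENCODE vM21). Gbp5 (chr3:142493978-142522344), Gbp7 (chr3:142530342-142550149), Gbp3 (chr3:142560026-142573209) and Gbp2 (chr3:142620602-142638008) follow each other on the plus strand. Gbp9 (chr5:105077630-105139539) and Gbp4 (chr5:105115767-105139586) overlap on the minus strand. Igtp (chr11:58199556-58207591) and Irgm2 (chr11:58199618-58222782) overlap on the plus strand, and Irgm1 (chr11:48861968-48871683) lies on the minus strand.

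RefSeq promoter entries (GRCm38.p6, 250 bases before to 50 after the start site) were examined for 7 of the 10 members, and not for Gbp4, Gbp9 and Iigp1. The ISRE core, GAAA followed by any 2 bases and GAAA again, was searched on both strands. All 7 members held it in an entry, against 3.44% of the 32851 RefSeq promoters of the same length. Gbp3 had 2 entries, of which 1 held the core. A core from each of 5 of these members is shown in windows of 30 bases on the strand of the gene. The core is in capitals, and this element is the feature the 7 members share.
Gbp2: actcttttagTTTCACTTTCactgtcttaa
Gbp3: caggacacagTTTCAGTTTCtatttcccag
Gbp5: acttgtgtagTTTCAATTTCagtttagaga
Gbp7: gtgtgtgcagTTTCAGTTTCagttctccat
Irgm1: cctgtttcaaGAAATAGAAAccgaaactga
The windows lie at chr3:142620594-142620623 for Gbp2, chr3:142559989-142560018 for Gbp3, chr3:142496759-142496788 for Gbp5, chr3:142530273-142530302 for Gbp7 and chr11:48871431-48871460 for Irgm1. Their cores began 59, 45, 165, 53 and 30 bases before the RefSeq start site, in that order. Gbp3 and Irgm1 each held a core that overlapped another by several bases.

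The GAS element TTCNNNGAA was present for 4 of the 7 members (Gbp5, Gbp7, Irgm2 and Igtp), against 8.3% of all promoters, and 0.454% of all promoters held both motifs. Igtp and Irgm2 carried the GAS element and the ISRE core 2 bases apart, in windows that differ at T9C, counted from 1 at the window's 5′ end with the Igtp base first. The capitals run from the first base of the GAS element to the last of the ISRE core.
Igtp: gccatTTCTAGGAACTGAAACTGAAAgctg
Irgm2: gccatTTCCAGGAACTGAAACTGAAAgctg
These windows lie at chr11:58199506-58199535 and chr11:58214897-58214926. The Igtp pair spans bases 45 to 25 before the RefSeq start and the Irgm2 pair bases 75 to 55. Gbp5 and Gbp7 held GAS elements apart from their ISRE core, of which 1 of Gbp5 and both of Gbp7 are shown next with GAS in capitals.
Gbp5: ctggccgttatTTCTCAGAAccaagcacag
Gbp7 distal: ttccgttttctTTCCAGGAAaagcagaagc
Gbp7 proximal: aaagcagaagcTTCTCAGAAagtcagcaca
The windows lie at chr3:142496871-142496900, chr3:142530219-142530248 and chr3:142530238-142530267. A match of letters is a description and not a measured binding site. In Gbp2, Gbp5, Irgm1 and Irgm2 the matches lie within the span of the GENCODE gene, whose outermost start is further upstream than that of RefSeq.

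**Figure D1:**
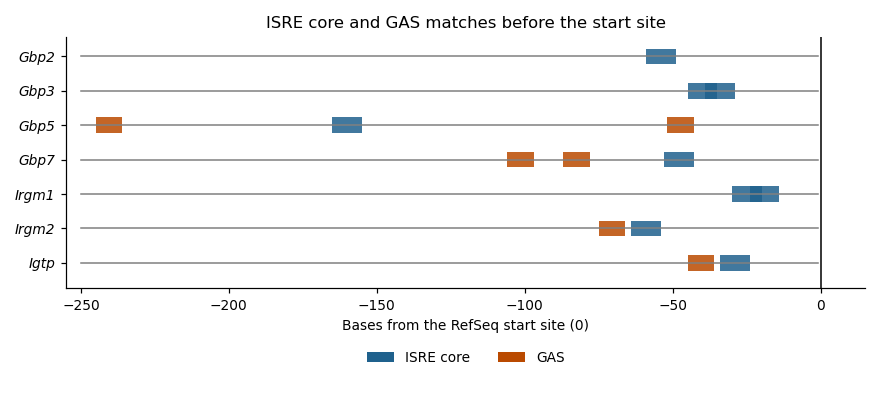
Positions of the ISRE core (blue) and GAS (orange) matches in the promoters of 7 members; the x axis gives bases from the RefSeq start site at 0 and each line a promoter from 250 bases before it. Every member shown holds an ISRE core, for Gbp3 in 1 of its 2 promoter entries, and the Igtp and Irgm2 pairs stand in the same arrangement at different distances.

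Library totals ranged from 4490242 to 6570057 counts. Foxp3, which defines Treg cells, lay between 6747 and 10250 normalized counts (counts scaled to a common library size) in every library. Of 41 listed markers of other cells, 16 stayed under 10 normalized counts in every library, among them Cd8a (6.39 at most), the B cell gene Ms4a1 (6.51), the macrophage marker Adgre1 (8.01) and the adipocyte gene Plin1 (1.25), and the others were higher. The 7 CD8 T and NK markers summed to between 231.9 and 582.1 normalized counts, mostly Cd8b1 and Prf1, the 7 dendritic cell markers to between 969.1 and 1925, mostly Cd74, the 3 endothelial markers to between 243.2 and 595.3, nearly all Pecam1, the 7 macrophage markers to between 26.2 and 141.8, and the 7 adipocyte and stroma markers to between 15.2 and 42. The B cell list was nearly all Ighm, the immunoglobulin heavy chain, which had 28550 normalized counts in replicate 2 of VAT with adjuvant alone and 6015 in replicate 1, from 6330 to 8486 in VAT with Fat1562, and from 11920 to 17030 in Spl/LN. Of the 21 markers of other cells that could be tested, edgeR called 6 in VAT with Fat1562 (4 rose, 2 fell) and 3 in Spl/LN (1 rose, 2 fell). Over all genes tested, 8.3% were called with Fat1562 in VAT and 3.98% in Spl/LN. In Spl/LN the class II genes H2-Aa and H2-Ab1 had log2 fold changes of -6.09 and -2.83 (edgeR adjusted p = 0.0085 and 0.00876). Jchain, a plasma cell gene, stood apart in 2 libraries, at 1731 normalized counts in replicate 2 of VAT with adjuvant alone and 525 in replicate 2 of Spl/LN with adjuvant alone, against 62.9 at most elsewhere. Over all 4 plasma cell markers, the summed level ranged from 1557 to 3376 in VAT with adjuvant alone, from 1379 to 1804 in VAT with Fat1562, and in Spl/LN it ranged from 970.4 to 1543 for the controls and from 1016 to 1129 for the Fat1562 group. The part of these markers in the results was not tested, and values without VAT adjuvant replicate 2 stand beside the members' calls that use it.

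Each member was expressed in all 11 libraries. Per kilobase of annotated exon, Igtp had the highest level, with a mean of 926 normalized counts per kb over the 11 libraries, followed by Gbp7 at 400.2, Gbp3 at 333, Gbp2 at 299.7, Gbp4 at 233, Irgm1 at 176, Irgm2 at 163, Gbp9 at 105, Iigp1 at 60.7 and Gbp5 at 24.4. The lowest Igtp library stood above the highest Gbp7 library. Below it, the ranges over all 11 libraries overlapped between every member and the next in this order. Within each group, however, Gbp2 stood above Gbp4, Gbp4 above Irgm1, Irgm2 above Gbp9 and Iigp1 above Gbp5, each without overlap. The other neighbours below Igtp overlapped within some group. Across libraries Iigp1 varied most, 7.38-fold from its lowest to its highest normalized count, then Gbp5 with 2.63-fold and Irgm2 with 2.04-fold. Gbp7 varied least, with 1.4-fold.

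The GBPs of the chromosome 3 cluster had different patterns across the libraries. Gbp5, which promotes assembly of the NLRP3 inflammasome, had 184, 177 and 246.5 normalized counts in Spl/LN with adjuvant alone and 106, 167 and 136 in Spl/LN with Fat1562. In VAT it had 98.7 and 93.5 with adjuvant alone and 200, 198 and 174 with Fat1562. The VAT libraries with adjuvant alone were thus the lowest of all 11, the Spl/LN libraries with the peptide lay below their controls, and the VAT libraries with the peptide stood above theirs, both without overlap. Gbp3, its neighbour in the cluster, had 1044, 1080 and 1473 normalized counts in Spl/LN with adjuvant alone and 798, 1028 and 1017 with Fat1562. In VAT, Gbp3 had 982 and 943 with adjuvant alone and 1346, 1239 and 994 with Fat1562. As for Gbp5, the Fat1562 libraries lay below the controls in Spl/LN and above them in VAT, here by narrow gaps.

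Gbp2, a lipid-modified GBP recruited to the vacuole of Toxoplasma, had 684, 911 and 761.5 normalized counts in Spl/LN with adjuvant alone and 837, 904 and 901 with Fat1562. In VAT, Gbp2 had 765.5 and 609.9 with adjuvant alone and 663, 709 and 547 with Fat1562. All 3 VAT libraries with Fat1562 lay below all 3 Spl/LN libraries with Fat1562, while the libraries with adjuvant alone overlapped between tissues. Gbp7 was the steadiest member, with 1883, 2197 and 2295 normalized counts in Spl/LN with adjuvant alone, 2039, 2643 and 2337 in Spl/LN with Fat1562, 2327 and 2184 in VAT with adjuvant alone and 2248, 2142 and 2419 in VAT with Fat1562. The Gbp7 libraries of all 4 groups overlapped. Of the annotated 38-base stretches of Gbp7, 13.9% also occur in other genes, mainly the pseudogene Gm43802. The exons of Gbp7 and Gm43802 share 637 bases on the same strand, so reads may be divided between them.

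The chromosome 5 members had their lowest counts in the VAT libraries. Gbp4 had 1895, 1925 and 1742 normalized counts in Spl/LN with adjuvant alone and 1868, 2292 and 2180.0 with Fat1562. In VAT, Gbp4 had 1475 and 1449 with adjuvant alone and 1554, 1461 and 1331 with Fat1562, so that every VAT library lay below every Spl/LN library. Gbp9 had 538, 569 and 568 normalized counts in Spl/LN with adjuvant alone and 621, 560.0 and 785 with Fat1562, against 473 and 427 in VAT with adjuvant alone and 425, 517 and 488 with Fat1562. No VAT library of Gbp9 reached the lowest Spl/LN library. Every VAT library lay below every Spl/LN library for 20.4% of all genes tested with adjuvant alone and for 17.4% with Fat1562. Of the annotated 38-base stretches (the read length) of Gbp4 and Gbp9, 11.8% and 13.5% also occur in other genes. For Gbp4 these were mainly Gbp6, Gm43302, Gbp11 and Gbp8, and for Gbp9 Gbp8, Gbp6, Gm43302 and Gbp4, so reads may be divided among these copies.

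The IRG regulators differed in whether tissue or peptide separated their libraries. Irgm1 had 1025, 1064 and 1056 normalized counts in Spl/LN with adjuvant alone and 1116, 1313 and 1295 with Fat1562, a shift without overlap that 11.4% of all genes tested also had. In VAT, Irgm1 had 988 and 765 with adjuvant alone and 856, 918 and 827 with Fat1562, and all 5 VAT libraries lay below all 6 Spl/LN libraries. Irgm2 had 436, 662 and 539 normalized counts in Spl/LN with adjuvant alone and 626, 889 and 664.5 with Fat1562. In VAT, Irgm2 had 479 and 443 with adjuvant alone and 630.5, 594 and 640 with Fat1562, where the peptide libraries stood above the controls. Igtp had 1397, 1924 and 1586 normalized counts in Spl/LN with adjuvant alone, 1730, 2237 and 2301 in Spl/LN with Fat1562, 1736 and 1718 in VAT with adjuvant alone and 2329, 2132 and 1509 in VAT with Fat1562. Its libraries overlapped in each comparison. The exons of Igtp and Irgm2 share 162 bases on the same strand, and 14.2% and 9.5% of their 38-base stretches also occur in other genes, mainly in each other.

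Iigp1 (chr18:60376027-60392634, plus strand), the effector among the 4 IRGs, had the widest spread. It had 264, 457 and 393.5 normalized counts in Spl/LN with adjuvant alone and 387, 499 and 712 with Fat1562. In VAT, Iigp1 had 96.5 and 152 with adjuvant alone, below all other libraries, and 261, 415 and 249 with Fat1562. The VAT libraries with Fat1562 stood above the VAT controls and overlapped the Spl/LN libraries of both treatments.

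**Figure D2:**
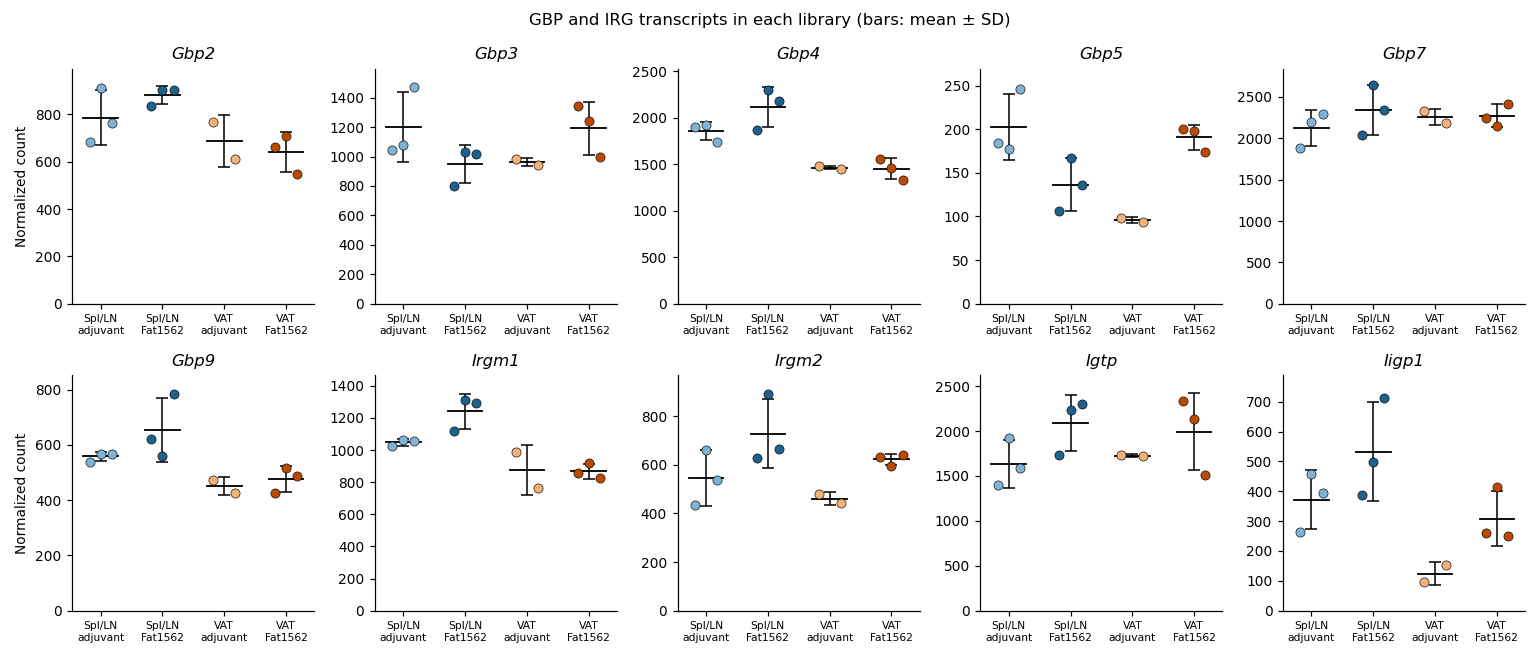
Normalized counts of the 10 members (y axes from 0) in each library, by group (x axes); points are libraries, the long bar is the group mean and the error bars are 1 SD (n = 3, or 2 for VAT with adjuvant alone). Gbp5 and Iigp1 are lowest in VAT with adjuvant alone, Gbp4, Gbp9 and Irgm1 are lower in all VAT libraries, and Gbp7 overlaps throughout.

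The peptide effect in VAT compares clonotype+ VAT Treg cells sorted from hosts given Fat1562 with those sorted from the control hosts. The study reported a large expansion of these cells in VAT with Fat1562, and its part in the values was not tested. Iigp1 and Gbp5 rose, and no member fell, where 3.97% of all genes tested fell. Iigp1 had 124 ± 39.4 (SD, n = 2) normalized counts without the peptide and 308 ± 92.8 (SD, n = 3) with it, which is a log2 fold change of 1.32 (SE 0.31, edgeR quasi-likelihood test, Benjamini-Hochberg adjusted p = 0.0127). Gbp5 had 96.1 ± 3.62 (SD, n = 2) without and 191 ± 14.5 (SD, n = 3) with it, which is a log2 fold change of 0.99 (SE 0.24, edgeR adjusted p = 0.0135). These are 2 of 10 members called higher, where 4.33% of all genes tested were called higher and 8.3% were called in either direction. The members' median log2 fold change was 0.14, against 0.01 over all genes tested.

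The other 8 members did not pass the test in VAT, although Irgm2 did when only the VAT libraries were fitted (log2 fold change 0.42, edgeR adjusted p = 0.0437). In the fit of all libraries Irgm2 had a log2 fold change of 0.43 (95% interval 0.06 to 0.80, edgeR adjusted p = 0.154) and Gbp3 of 0.31 (95% interval -0.03 to 0.65, adjusted p = 0.292), and both had every Fat1562 library above every control library. With Gbp5 and Iigp1, 4 members had libraries above their controls without overlap, as did 21.1% of all genes tested. Gbp2, Gbp4, Gbp7, Gbp9, Irgm1 and Igtp had log2 fold changes from -0.11 to 0.20.

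Both VAT calls rested on few libraries, and with 1 control library left its spread is assumed to be that of the other groups. Without VAT adjuvant replicate 2, the library with the high Ighm and Jchain, the log2 fold change of Gbp5 was 0.95 (edgeR adjusted p = 0.113) and that of Iigp1 1.68 (adjusted p = 0.0281). Without VAT adjuvant replicate 1, Gbp5 was at 1.03 (adjusted p = 0.0849) and Iigp1 at 1.02 (adjusted p = 0.173), and without VAT Fat1562 replicate 2, Iigp1 was at 1.04 (adjusted p = 0.0698) and Gbp5 at 0.96 (adjusted p = 0.0492). Leaving out any other single library lost neither call. Here as in every bulk comparison, fewer cells expressing a gene and less RNA per cell cannot be told apart.

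In Spl/LN no member was called after Fat1562, in either direction, by the edgeR test, by DESeq2 or by limma. Without the filter on low counts, edgeR called Igtp (adjusted p = 0.0268) and Iigp1 (adjusted p = 0.0353) higher. The background was 3.98% of genes called, and 6 of the 10 members had an unadjusted p under 0.05, as did 18.3% of all genes tested. The log2 fold changes were above 0 for 8 members, where 50% of all genes tested were above 0, and the members' median was 0.21, against -5.45e-06 over all genes tested. Iigp1 had a log2 fold change of 0.52 (95% interval 0.00 to 1.04, edgeR adjusted p = 0.27), Irgm2 of 0.41 (adjusted p = 0.146), Igtp of 0.35 (adjusted p = 0.209) and Irgm1 of 0.24 (adjusted p = 0.23). Gbp5 had a log2 fold change of -0.58 (95% interval -0.995 to -0.16, adjusted p = 0.121) and Gbp3 of -0.34 (adjusted p = 0.208), and in both every Fat1562 library lay below every control library, as in 9.84% of all genes tested.

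Gbp5 was the member whose peptide effect differed between tissues. The difference of its log2 fold changes, VAT minus Spl/LN, was 1.56 (SE 0.31, 95% interval 0.91 to 2.21, edgeR interaction test, adjusted p = 0.00753), with 3.72% of all genes tested called in this test and 1.7% called in its direction. Its value lay between 1.39 and 1.73 in all 18 alternative fits and was called in 17 of them, all but the one that asked for a 1.5-fold change, and also without VAT adjuvant replicate 2 (1.53, adjusted p = 0.0425). Gbp3 had the next positive difference among the GBPs, 0.65 (95% interval 0.19 to 1.10, adjusted p = 0.117), and was not called. The difference for Iigp1 was 0.79 (95% interval -0.04 to 1.62, adjusted p = 0.321), so its call in VAT and the lack of one in Spl/LN is not a shown difference between the tissues. For the remaining 7 members the differences ran from -0.27 to 0.02 and none was called. The median over the members was -0.14, against 0.01 over all genes tested.

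**Figure D3:**
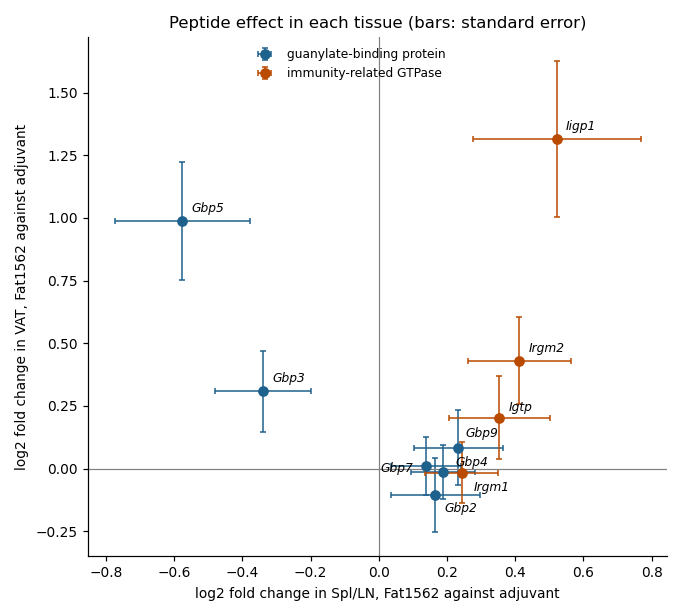
log2 fold change with Fat1562 in Spl/LN (x axis) against that in VAT (y axis) for each member, with standard errors; GBPs in blue, IRGs in orange. Gbp5 and Gbp3 sit to the left of 0 and above 0, Iigp1 and Irgm2 lie to the right and above 0, and the other members lie close together between 0.14 and 0.35 on the x axis.

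The comparison of VAT with Spl/LN asks whether residence in fat went with another level of the GTPases. With adjuvant alone, Iigp1, Gbp5 and Gbp4 were lower in VAT, and no member was called higher by edgeR, DESeq2 or limma. Iigp1 had 124 ± 39.4 (SD, n = 2) normalized counts in VAT and 372 ± 98.3 (SD, n = 3) in Spl/LN, a log2 fold change of -1.59 (SE 0.31, edgeR adjusted p = 0.00159), and it was called lower in all 19 alternative fits. Gbp5 had 96.1 ± 3.62 (SD, n = 2) and 203 ± 38.2 (SD, n = 3), a log2 fold change of -1.08 (SE 0.24, edgeR adjusted p = 0.00384). Gbp4 had a log2 fold change of -0.34 (SE 0.11, adjusted p = 0.0364). The 3 members called lower compare with 7.18% of all genes tested called lower and 16.3% called in either direction. The members' median log2 fold change was -0.28, against -0.03 over all genes tested. Without VAT adjuvant replicate 2 the values were -1.95 for Iigp1 (edgeR adjusted p = 0.00446), -1.04 for Gbp5 (adjusted p = 0.041) and -0.33 for Gbp4 (adjusted p = 0.163). The Gbp4 call was also lost without a filter on low counts, when only these groups were fitted, and without VAT adjuvant replicate 1 (-0.36), Spl/LN adjuvant replicate 1 (-0.32) or Spl/LN adjuvant replicate 2 (-0.31), whereas Iigp1 and Gbp5 were called with any single library left out.

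Gbp3, Gbp9 and Irgm1 had log2 fold changes of -0.32, -0.31 and -0.26 with adjuvant alone (edgeR adjusted p = 0.209, 0.182 and 0.172; limma called Irgm1, -0.37, adjusted p = 0.0315), with every VAT library below every Spl/LN library. In all, 6 members had such libraries, as did 20.4% of all genes tested. Gbp7 and Igtp had log2 fold changes of 0.09 and 0.08, and Gbp2 and Irgm2 of -0.19 and -0.24, with overlapping libraries.

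After Fat1562, 5 members were lower in VAT than in Spl/LN: Gbp4, Irgm1, Gbp2, Gbp9 and Iigp1. Gbp4 had 1449 ± 112 (SD, n = 3) normalized counts in VAT and 2113 ± 220.0 (SD, n = 3) in Spl/LN, a log2 fold change of -0.55 (SE 0.09, edgeR adjusted p = 0.000631). Irgm1 had 867 ± 46.5 (SD, n = 3) and 1241 ± 109 (SD, n = 3), a log2 fold change of -0.52 (SE 0.11, edgeR adjusted p = 0.0029). Gbp2 and Gbp9 both had a log2 fold change of -0.46 (SE 0.13 each, adjusted p = 0.023 and 0.024), and Iigp1 had -0.79 (SE 0.25, adjusted p = 0.0399) with overlapping libraries. In this comparison 6.73% of all genes tested were called lower and 15% were called in either direction. The members' median log2 fold change was -0.34, against -0.01 over all genes tested.

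The Gbp4 and Irgm1 calls held when any single library was left out, whereas the other 3 rested on more of them. Iigp1 was not called without Spl/LN Fat1562 replicate 2 (-0.84) or 3 (-0.52), or without VAT Fat1562 replicate 1 (-0.69) or 3 (-0.66). Gbp2 was not called without Spl/LN Fat1562 replicate 2 (-0.44) or 3 (-0.44), or without VAT Fat1562 replicate 1 (-0.49) or 3 (-0.36). Gbp9 was not called without Spl/LN Fat1562 replicate 3 (-0.31), or without VAT Fat1562 replicate 1 (-0.39) or 3 (-0.48). Gbp5, lower in VAT with adjuvant alone, had a log2 fold change of 0.49 after Fat1562 (95% interval 0.07 to 0.91, edgeR adjusted p = 0.118), and all 3 of its VAT libraries stood above the Spl/LN libraries, as in 18.8% of all genes tested. Gbp2, Gbp4, Gbp9 and Irgm1 had all VAT libraries below, as did 17.4% of all genes tested.

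**Figure D4:**
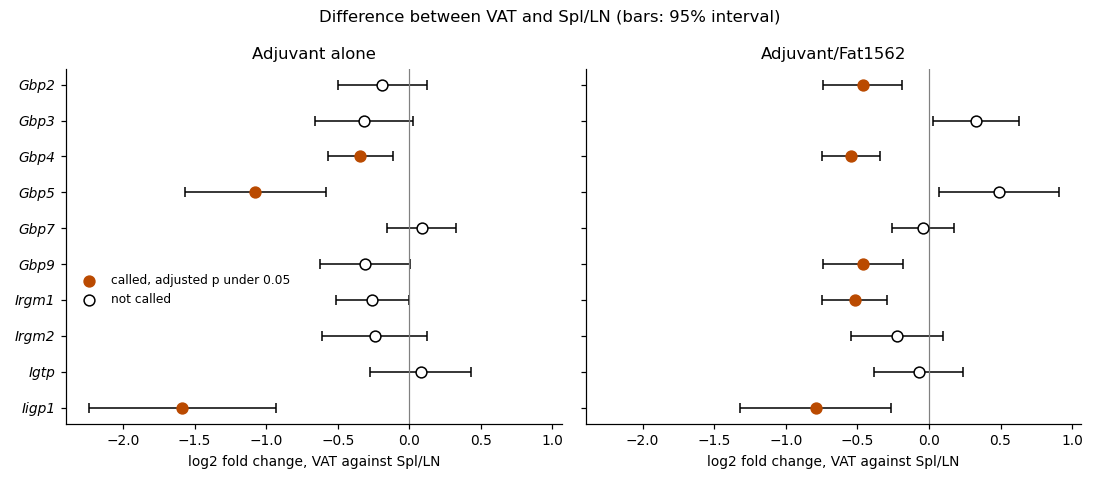
log2 fold change of VAT against Spl/LN for each member, with adjuvant alone (left panel) and with adjuvant/Fat1562 (right panel); bars are 95% intervals, and filled points passed the test at an adjusted p under 0.05. With adjuvant alone Gbp4, Gbp5 and Iigp1 are filled, and with Fat1562 Gbp2, Gbp4, Gbp9, Irgm1 and Iigp1 are filled, all to the left of 0.

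Over the 11 libraries the members did not form a single pattern. The 45 pairwise Pearson correlations of log2 normalized counts had a median of 0.33 and ran from -0.19 for Gbp3 and Gbp9 to 0.92 for Gbp4 and Irgm1. Gbp3 and Gbp5 correlated with each other at 0.82 and with the mean of the other members at 0.12 and 0.30, whereas Iigp1 reached 0.81 and Irgm1 0.76 against the mean of the others. The 5 genes outside the members and the listed relatives whose log2 level was most like the members' mean standardized level were Tap2 (r = 0.94) and Tap1 (r = 0.94), which together form the peptide transporter for MHC class I loading, Ifi47 (r = 0.92), an IRG that the list of relatives did not hold, Zfp574 (r = 0.92) and Slfn2 (r = 0.92). All these values are descriptions across 11 libraries that share their groups and scaling.

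Other GBP and IRG genes were also lower in VAT with adjuvant alone. Of 18 listed relatives 14 could be tested, with a median log2 fold change of -0.83. In this comparison edgeR called 7.18% of all genes tested lower. Of the relatives, 7 were called lower there and none higher by edgeR and limma (8 lower by DESeq2). They included Tgtp1 (-2.41, edgeR adjusted p = 0.000504) and its near copy Tgtp2 (-1.01, adjusted p = 0.00526), which encode the effector Irgb6, Gm12250 (-0.91, adjusted p = 0.000198), which encodes the effector Irgb10, and Gbp10 (-1.14, adjusted p = 0.0282). Of the 7, 3 were called without VAT adjuvant replicate 2 (Tgtp1, Tgtp2 and Gm12250), and also 3 without replicate 1 (Tgtp1, Gm12250 and Gbp10). With Fat1562 in VAT, Tgtp1 went from 9.76 and 12.5 normalized counts to 43.8, 69.2 and 36.5, a log2 fold change of 2.16 (SE 0.42, edgeR adjusted p = 0.00298). Gbp10 went from 42.3 and 26.2 to 79.8, 116.0 and 72.0, a log2 fold change of 1.37 (SE 0.34, adjusted p = 0.0171). Gbp8, a chromosome 5 relative, fell by 0.64 on the log2 scale (adjusted p = 0.0376). The log2 fold changes with Fat1562 were 2.34 for Tgtp1 (edgeR adjusted p = 0.0268), 1.08 for Gbp10 (adjusted p = 0.196) and -0.55 for Gbp8 (adjusted p = 0.236) without VAT adjuvant replicate 2, and without replicate 1 Tgtp1 was at 1.99 (adjusted p = 0.0526). Reads of Tgtp1 and Tgtp2 may be divided between the copies. In Spl/LN none of the 14 was called with Fat1562 by edgeR, DESeq2 or limma, 1 had an unadjusted p under 0.05, and 12 had log2 fold changes above 0. Of all genes tested, edgeR called 3.98% there, 18.3% had an unadjusted p under 0.05 and 50% had log2 fold changes above 0.

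Upstream of the GTPases, the receptor and the factors did not move together. The list of interferon gamma signaling genes held 14, of which 12 could be tested, since Ifng itself had at most 5.21 normalized counts in any library and Batf2 at most 1.12. Ifngr1, the ligand-binding receptor chain, had 14200.0 and 14640.0 normalized counts in VAT with adjuvant alone and 2805, 3393 and 3118 in Spl/LN, a log2 fold change of 2.21 (SE 0.09, edgeR adjusted p = 1.4e-11), opposite in direction to Iigp1 and Gbp5. With Fat1562, Ifngr1 rose by 0.60 in Spl/LN (edgeR adjusted p = 0.000329) and fell by 0.34 in VAT (adjusted p = 0.0271) on the log2 scale. Irf1 was lower in VAT under both treatments (log2 fold changes of -0.38 and -0.63, adjusted p = 0.0386 and 0.0005). Jak2 was higher in VAT under both (1.18 and 0.51, edgeR adjusted p = 3.28e-05 and 0.02). The Jak2 call with Fat1562 was lost without Spl/LN Fat1562 replicate 1, 2 or 3, and without VAT Fat1562 replicate 1 or 2. Without VAT adjuvant replicate 2, the log2 fold changes with adjuvant alone were -0.39 for Irf1, 2.19 for Ifngr1 and 1.10 for Jak2. The Irf1 call with adjuvant alone was lost without Spl/LN adjuvant replicate 2 or 3, or Spl/LN Fat1562 replicate 3. It was also lost without VAT adjuvant replicate 1 or 2, or VAT Fat1562 replicate 2. The calls of Ifngr1 and Jak2 with adjuvant alone held whichever library was left out.

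After Fat1562 in VAT, 1 gene of the signaling list rose and 3 fell, Ifngr1 among them, with a median log2 fold change of -0.14. Of all genes tested, edgeR called 4.33% higher and 3.97% lower there. Irf8, a partner of Irf1 and of the Ets factors, rose by 0.84 (SE 0.21, edgeR adjusted p = 0.0161). Nlrc5, the transactivator of MHC class I genes, went from 3133 and 3184 normalized counts to 1451, 1438 and 1468, and fell by 1.12 on the log2 scale (SE 0.09, adjusted p = 9.04e-07), and Irf9 fell by 0.39 (adjusted p = 0.033). Without VAT adjuvant replicate 2, Nlrc5 (-1.11) and Irf9 (-0.56) were called, and Ifngr1 (-0.31, edgeR adjusted p = 0.17) and Irf8 (0.59, adjusted p = 0.228) were not. The Irf9 call was lost without VAT Fat1562 replicate 1, 2 or 3, and the Nlrc5 call was not. The log2 fold changes of Jak1, Jak2, Ifngr2, Stat2, Irf1, Irf2 and Ciita did not pass the test. In Spl/LN, Ifngr1 was the 1 gene of the list that was called.

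Among 11 listed inhibitors of the pathway, the phosphatases Ptpn6 and Ptpn1 rose with Fat1562 in both tissues. Ptpn6, which encodes SHP-1, had log2 fold changes of 0.98 in Spl/LN and 0.99 in VAT (SE 0.11 and 0.13, edgeR adjusted p = 6.15e-05 and 9.32e-05), and Ptpn1 of 0.49 and 0.61 (adjusted p = 0.0022 and 0.000589). Socs3 fell by 0.93 on the log2 scale in Spl/LN (adjusted p = 0.000343), while Socs1, the main feedback inhibitor of the pathway, had log2 fold changes of -0.52 and -0.63 in Spl/LN and VAT and was not called by edgeR or limma, while DESeq2 called it lower in VAT (-0.65, adjusted p = 0.0417). Both phosphatases were also lower in VAT than in Spl/LN under both treatments, with log2 fold changes from -0.88 to -0.40.

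Interferon gamma targets outside the 2 families went in both directions in VAT. Of 33 listed, 28 could be tested, and with Fat1562 in VAT 2 rose and 7 fell, with a median of -0.07. In this comparison edgeR called 4.33% of all genes tested higher and 3.97% lower. The serpin Serpina3g rose by 1.04 (SE 0.25, edgeR adjusted p = 0.0134) and the proteasome activator Psme2 by 0.80 (SE 0.15, adjusted p = 0.00195). Among the 7, Cxcl10, a Cxcr3 ligand, fell by 2.46 on the log2 scale, Ly6c1 by 4.08, Fgl2 by 0.78, Icam1 by 0.44, and the class I heavy chains H2-D1 and H2-K1 by 0.49 and 0.47 (adjusted p from 0.000139 to 0.0255). Psme2 was at 0.57 and not called without VAT adjuvant replicate 2 (edgeR adjusted p = 0.0577), and without replicate 1, Serpina3g was at 0.75 (adjusted p = 0.195) and Icam1 at -0.30 (adjusted p = 0.321). With adjuvant alone, the split between higher and lower in VAT depended on the tool: edgeR called 9 of the 28 higher and 5 lower, DESeq2 9 and 6, and limma on quantile-normalized values 6 and 10, where edgeR called 9.09% of all genes tested higher and 7.18% lower. In Spl/LN, Ly6a and Cybb rose with Fat1562 and Ly6c1 fell. Among 28 tested type I interferon-stimulated genes, edgeR called 7 higher with Fat1562 in Spl/LN and 1 in VAT, which was Oas2 (1.91, adjusted p = 0.0334, and 0.265 without VAT adjuvant replicate 2). None was called lower in either tissue by edgeR, DESeq2 or limma. Of all genes tested, edgeR called 3.98% in either direction in Spl/LN, and 4.33% higher in VAT. With 1 Spl/LN library left out, between 1 and 6 of these genes were called higher in Spl/LN, with 1 left without Spl/LN Fat1562 replicate 2.

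**Figure D5:**
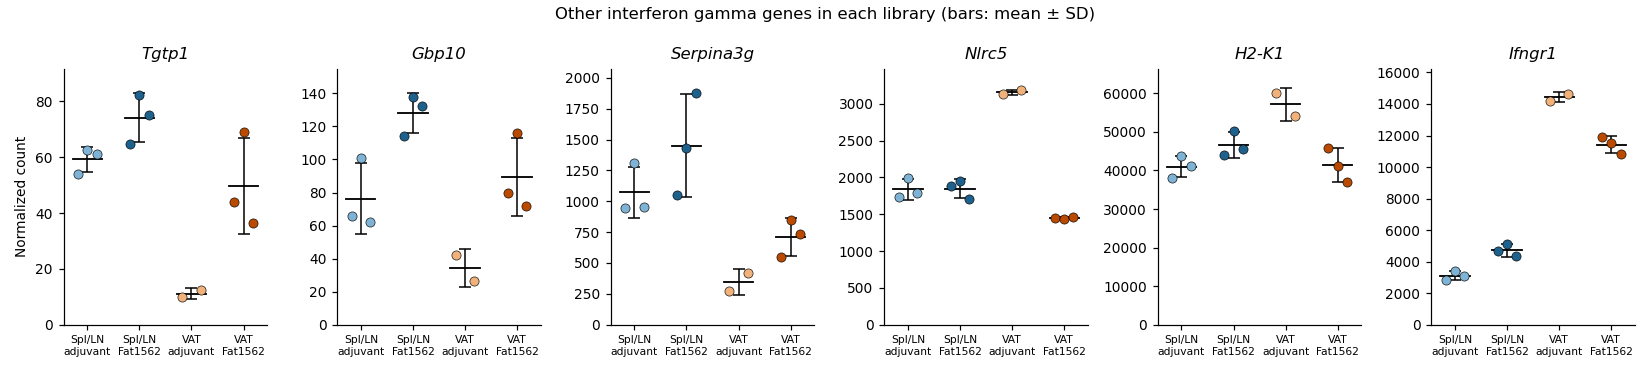
Normalized counts (y axes from 0) of 6 other genes of the pathway in each library, by group (x axes); points are libraries, long bars are means and error bars are 1 SD. Tgtp1, Gbp10 and Serpina3g are lowest in VAT with adjuvant alone and rise with Fat1562, whereas Nlrc5 and H2-K1 are highest in that group and fall, and Ifngr1 is higher in all VAT libraries.

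Genes whose products work with the GTPases were listed too. Of 15 tested genes of vacuole targeting and autophagy, which several GBPs and IRGs need to reach their membranes, edgeR called none with Fat1562 in either tissue, with 1 unadjusted p under 0.05 in Spl/LN and 4 in VAT, while DESeq2 called 1 higher in Spl/LN and 1 lower in VAT. Of all genes tested, edgeR called 3.98% with Fat1562 in Spl/LN and 8.3% in VAT, and 18.3% had an unadjusted p under 0.05 in Spl/LN. The log2 fold changes of the 15 genes ran from -0.35 to 0.67 in Spl/LN and from -0.44 to 0.23 in VAT. Of 6 tested inflammasome genes, the adaptor Pycard rose by 0.36 in Spl/LN (edgeR adjusted p = 0.0176). None was called in VAT by edgeR, DESeq2 or limma, with 2 unadjusted p values under 0.05. The Pycard call in Spl/LN was lost without Spl/LN adjuvant replicate 3, and without Spl/LN Fat1562 replicate 2 or 3. Casp1, Casp4 and Pycard were lower in VAT under both treatments, with log2 fold changes of -0.73, -1.24 and -0.64 with adjuvant alone and -1.02, -0.83 and -0.78 with Fat1562 (edgeR adjusted p from 3.15e-06 to 0.0117). Of all genes tested, edgeR called 7.18% lower in VAT with adjuvant alone and 6.73% with Fat1562. With adjuvant alone and without VAT adjuvant replicate 2, Casp1 was at -0.60 and not called (adjusted p = 0.13). The Th1 genes Tbx21 and Cxcr3 rose with Fat1562 in both tissues, by 1.84 and 2.12 in Spl/LN (edgeR adjusted p = 0.00256 and 4.7e-05) and by 2.75 and 1.72 in VAT (adjusted p = 0.000145 and 0.00053) on the log2 scale.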

How the data were processed

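Smart-seq2 libraries of 1000 double-sorted cells were sequenced as paired reads of 38 bases and placed on mm10. The submitters' processing notes name STAR 2.5.4 and featureCounts, and the study's methods name Cuffquant. The deposited table holds whole-number counts per gene, not normalized by the authors, and its annotation and strand setting are not given in the sources used here. The library kit does not mark strand.

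Genes entered the fit if the mean of any group, at a common library total, exceeded 10 (12932 of 52997). The 11 libraries were fitted together with group means in edgeR 4.0.16 (TMM, glmQLFit with a prior count of 0.125, glmQLFTest, R 4.3.3), and p-values were adjusted over all genes tested by Benjamini-Hochberg at 0.05. To normalize, each count was set relative to its library's TMM-scaled total and put on the scale of the mean total. Each SE is the absolute log2 fold change divided by the square root of the test's F value. The 95% intervals use this SE with the t distribution. The fit was tested on simulated data. Alternatives were median-of-ratios scaling, limma 3.58.1 on quantile-normalized log2 values, DESeq2 1.42.0, no filter, a mean above 50, only the groups compared, the replicate number as a block, a minimum change of 1.5-fold and each library left out. No 2 libraries of a group agreed within sampling noise (chi-square per degree of freedom from 5.6 to 11.8). The methods call the libraries biological replicates, but nothing ties each to an animal, so p-values measure the spread between libraries. The named genes are all members, up to 6 genes of each list called in a peptide or interaction test, and the signaling list. Values of a few genes and 1 promoter window are not reported here. Tgtp2, Gm12250, Socs1, Serpina3g, Casp1 and Casp4 fall outside this rule and were named after their values were seen. Members and lists were chosen with earlier results of these data known.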

Additional observations from a re-analysis of the deposited data

Results flagged for a closer look

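The responses of 11 genes to Fat1562 were not the same in VAT and Spl/LN when the difference itself was tested in edgeR, given as the log2 fold change in VAT minus that in Spl/LN. They were picked by their calls from the 10 GTPases and, as tested, 12 signaling genes, 11 inhibitors, 28 other targets and 28 type I genes. In the same test 3.72% of all genes tested were called. Among the 10 GTPases it was Gbp5, with a difference of 1.56 (edgeR adjusted p = 0.00753), which lay lower in all 3 Spl/LN libraries and higher in all 3 VAT libraries than in their controls. Among the receptor, the factors and the inhibitors, the differences were -0.94 for Ifngr1 (edgeR adjusted p = 0.000315), -1.13 for Nlrc5 (adjusted p = 7.52e-05) and 0.80 for Socs3 (adjusted p = 0.0259). Among other targets of interferon gamma, Cxcl10 differed by -2.93 (edgeR adjusted p = 0.00728), H2-D1 by -0.68 (adjusted p = 0.00103), H2-K1 by -0.66 (adjusted p = 0.00385), Icam1 by -0.63 (adjusted p = 0.0351) and Fgl2 by -0.55 (adjusted p = 0.0432). Among type I interferon-stimulated genes, Cmpk2 differed by -1.06 (edgeR adjusted p = 0.048) and Ddx58, which encodes the RNA sensor RIG-I, by -0.79 (adjusted p = 0.0156). Without VAT adjuvant replicate 2, the differences of Socs3 (edgeR adjusted p = 0.0698), Fgl2 (adjusted p = 0.127) and Cmpk2 (adjusted p = 0.129) were not called. Of the 10 genes other than Gbp5, those called whichever library was left out were Ifngr1, Nlrc5, Cxcl10, H2-D1 and H2-K1. Gbp5 and Socs3 were thus the genes with a positive difference, and the other 9 had a more negative log2 fold change in VAT.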

How the results depend on the processing

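Of 940 values of the members under the alternatives, 904 kept their side of the threshold, 31 lost a call and 5 gained one. In all, 24 values, each of a change near 0 that was not called, had the opposite sign, and no called change did. In VAT, the 2 members called higher with Fat1562 became 0 under the 1.5-fold minimum, 0 to 2 when a library was left out, and 3 when only the groups compared were fitted (Irgm2 added, edgeR adjusted p = 0.0437). In Spl/LN, without a filter on low counts, 2 were called higher (Igtp and Iigp1, edgeR adjusted p = 0.0268 and 0.0353) in place of 0. The members lower in VAT with adjuvant alone went from 3 to 1 (Iigp1) under the 1.5-fold minimum, to 2 or 3 when a library was left out, to 2 without a filter or with only the groups compared (Gbp4 lost), and to 4 with limma (Irgm1 added). With Fat1562 they went from 5 to 0 and to between 2 and 5. For the difference between tissues, 1 member became 0 under the 1.5-fold minimum and 2 without a filter (Gbp5 and Gbp3, where the median of all genes moved by 0.12 on the log2 scale). The cause was not tested, except that the 1.5-fold minimum asks for more than many of these changes. With the replicate number as a block, the counts were the same as without it: 0 members in Spl/LN, 2 in VAT, 3 and 5 between tissues and 1 for the difference. Deviations of the 10 same-numbered pairs correlated between -0.07 and 0.08, and those of pairs with different numbers between -0.10 and 0.08. Between Spl/LN and VAT under the same treatment, same-numbered pairs ran from 0.02 to 0.08 and the others from -0.10 to 0.05. The labels do not say whether the number marks a shared host, so such a pairing was not excluded. With 2 libraries of VAT with adjuvant alone, the changes of Gbp2, Gbp4, Gbp7 and Irgm1 in VAT were near 0 and took both signs across alternatives. Of the calls of listed genes other than the members, Tbx21 and Cxcr3 included, 10 of 21 with Fat1562 in VAT, 9 of 17 with Fat1562 in Spl/LN, 17 of 38 between tissues with adjuvant alone and 20 of 32 with Fat1562 held whichever library was left out.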
